A study of Mus musculus with 9 samples.

Results

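The miR-200 family and the miR-183 cluster were followed in hippocampal RNA of mice that had aspirated saline or fine particulate matter (PM2.5). The members were 8 mature microRNAs (miRNAs) read by their names in the array files: mmu-miR-200b-3p, mmu-miR-200a-3p and mmu-miR-429-3p from one locus, mmu-miR-200c-3p and mmu-miR-141-3p from another, and mmu-miR-183-5p, mmu-miR-96-5p and mmu-miR-182-5p from the miR-183 cluster. The prefix mmu, for mouse, is left out in the rest of the text except where the values are first given. They were 8 of the 1247 mouse miRNAs on the array, and they were chosen because miR-200b-3p, miR-200a-3p and miR-429-3p varied strongly between arrays, so the spread of these 3 is a description and not a finding. The question was whether both miR-200 loci and the miR-183 cluster moved together from array to array. The answer was limited by detection: the 3 miRNAs of the miR-200b/miR-200a/miR-429 locus were detected on 8 of 9 arrays and varied as 1 unit, and the other 5 members were detected on 0 of 9.

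The mice were C57BL/6 males of about 8 weeks of age, and no transgene or other allele is named for them. The control group received saline by oropharyngeal aspiration, and the exposed groups received PM2.5 at 1 mg/kg bw or 5 mg/kg bw by the same route, every other day for 4 weeks. Each group had 3 arrays, each labelled as a separate replicate. The study counts 3 mice per group for its array figure, which covers control and 5 mg/kg only. Signals came from Agilent mouse miRNA arrays, a one-colour platform on which short probes capture labelled miRNAs, and precision is set by how few arrays there are. Detection ranged from 410 to 436 miRNAs per array, no spot was saturated, and the 75th percentile used for scaling lay between 492 and 614 units.

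The miR-200 family is best known in epithelia, where its members repress Zeb1 and Zeb2, transcription factors that silence E-cadherin, and thereby hold cells in the epithelial state. Around the brain these miRNAs are known from the olfactory epithelium and the pituitary. The miR-183 cluster is known from sensory cells, including photoreceptors, hair cells of the inner ear and sensory ganglia. RNA from whole tissue was hybridised, so fewer cells of a type and less RNA per cell cannot be told apart.

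The mature sequences are shown because family members share seeds across loci while the measured signals divided by locus. RefSeq (GRCm38.p6) held all 8, and they are given 5′ to 3′ with the seed, bases 2 to 8, in capitals.
miR-200b-3p: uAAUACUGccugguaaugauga
miR-429-3p: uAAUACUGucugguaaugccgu
miR-200c-3p: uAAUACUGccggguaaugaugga
miR-200a-3p: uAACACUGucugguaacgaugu
miR-141-3p: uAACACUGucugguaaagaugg
miR-183-5p: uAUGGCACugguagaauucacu
miR-96-5p: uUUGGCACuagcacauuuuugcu
miR-182-5p: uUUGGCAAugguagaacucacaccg

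By seed, miR-200b-3p, miR-429-3p and miR-200c-3p formed one group (AAUACUG), and miR-200a-3p and miR-141-3p formed another (AACACUG) that differed from it at 1 base. Both groups cut across the miR-200 loci. Over 22 compared bases, miR-200b-3p differed from miR-200c-3p at 2 positions, fewer than the 4 that set it apart from its locus neighbour miR-200a-3p. The same held for miR-200a-3p, which differed from miR-141-3p at 2 positions and from miR-429-3p at 4. The members of the miR-183 cluster each had a seed of their own.

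The miR-200b, miR-200a and miR-429 hairpins lie within 1846 bases on the minus strand at chr4:156053905-156055750 (GRCm38.p6), inside the bounds of the long noncoding RNA gene Gm13648. The miR-200c and miR-141 hairpins lie within 477 bases at chr6:124717914-124718390, also on the minus strand, where no other listed gene overlaps them, with Phb2 969 bases and Ptpn6 2317 bases away. The miR-183, miR-96 and miR-182 hairpins occupy 3820 bases of the minus strand at chr6:30165918-30169737, inside the bounds of the long noncoding RNA gene Mirc35hg. The table of genes gives bounds only, so exon and intron positions were not analysed here.

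Signals are given as log2 of the summed probe signal over the 75th percentile of the array. A signal below the lowest detected signal of its array was set to that floor, which lay between -6.68 and -5.93. mmu-miR-200b-3p, which shares its seed with miR-429-3p, read -3.24, -4.10 and -4.00 on the 3 control arrays. It read -5.02, -4.90 and -3.27 at 1 mg/kg, and -6.27 (at the floor, not detected), -4.61 and -3.12 at 5 mg/kg. The highest arrays came 1 from each group: control replicate 1, 1 mg/kg replicate 3 and 5 mg/kg replicate 3. The 4 lowest arrays were all exposed ones, and the groups overlapped.

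mmu-miR-200a-3p, which carries the other seed, read -3.56, -4.25 and -3.95 in the controls, -5.13, -4.97 and -3.58 at 1 mg/kg, and -6.27 (at the floor, not detected), -4.56 and -3.36 at 5 mg/kg. mmu-miR-429-3p, encoded by the last hairpin of the locus, read -3.19, -4.07 and -3.77 in the controls, -4.66, -4.72 and -3.28 at 1 mg/kg, and -6.09 (not detected), -4.35 and -3.11 at 5 mg/kg. The same 3 arrays were highest for both, and 5 mg/kg replicate 1 was lowest for both.

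**Figure D1:**
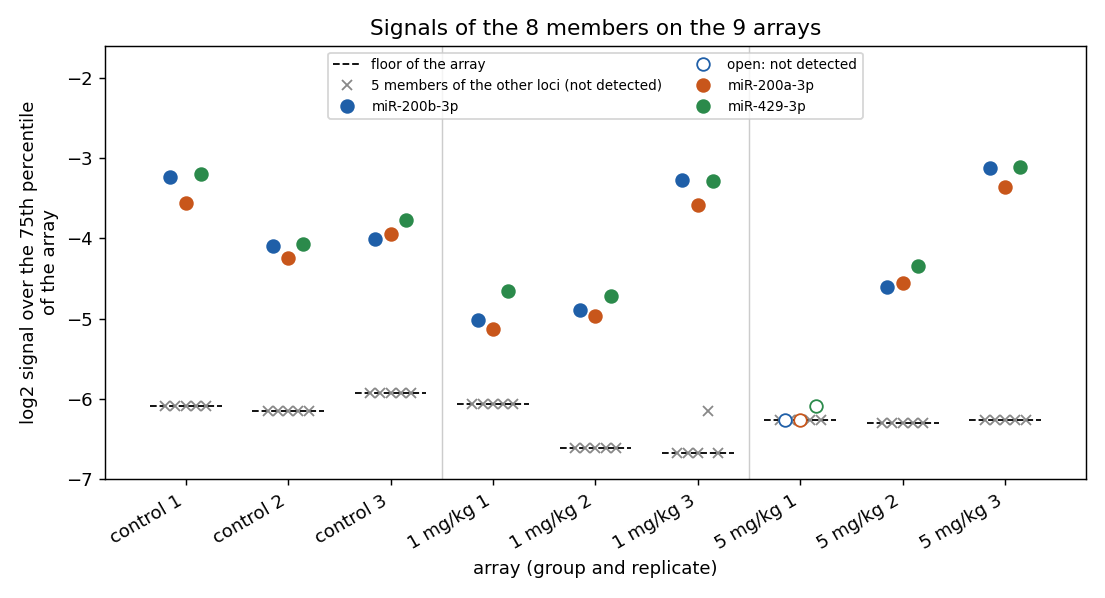
Log2 signal of the 8 members over the 75th percentile of each array, by array. Filled points are detected, open points not detected, dashes mark the floor of the array and crosses the 5 members of the other loci; miR-200b-3p, miR-200a-3p and miR-429-3p moved together and were highest on control replicate 1, 1 mg/kg replicate 3 and 5 mg/kg replicate 3.

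Over the 9 arrays the SD was 1.03 for miR-200b-3p, 0.95 for miR-429-3p and 0.94 for miR-200a-3p on the log2 scale, against a median of 0.15 over the 424 miRNAs tested. These values ranked 3, 4 and 5 among the 424, which is the property they were picked for. Among arrays that detected it, miR-200b-3p was 3.73-fold higher on 5 mg/kg replicate 3 than on 1 mg/kg replicate 1. Against the undetected array, 5 mg/kg replicate 1, it was at least 8.87-fold higher. For miR-200a-3p the corresponding bound was at least 7.49-fold. miR-429-3p read 8.12 units on that array, above its floor of 7.17 units, and was still not called detected. Its 7.91-fold is therefore a ratio to that reading and not a bound.

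The 3 miRNAs of the locus followed one another closely. Pearson's r over the 9 arrays was 0.994 between miR-200b-3p and miR-200a-3p, 0.995 between miR-200b-3p and miR-429-3p, and 0.995 between miR-200a-3p and miR-429-3p. Spearman's rho was 1.0, 0.983 and 0.983 in the same order. Over the 8 arrays that detected all 3, r was still 0.988, 0.993 and 0.989, and deviations from the group means gave 0.994, 0.994 and 0.996. No p is given because all 3 were picked for the same spread. The log2 ratio of miR-200b-3p to miR-200a-3p had an SD of 0.15 over those 8 arrays, where the miRNAs themselves had SDs of 0.77 and 0.67.

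Each member was read by 2 probes with 20 spots apiece, of which at least 13 remained after outlier spots were left out. All 6 probes of the locus had their lowest mean on 5 mg/kg replicate 1 and their highest on 5 mg/kg replicate 3, and all 6 had the same 3 highest arrays. The 17-base probe of miR-200b-3p read 5.37 and 53.9 units on those arrays, before scaling. The 18-base probe of miR-200a-3p read 3.27 and 41.7 units and the 19-base probe of miR-429-3p 4.13 and 34.3 units. The 6 probes were 3.49- to 5.99-fold higher on 5 mg/kg replicate 3 than on 1 mg/kg replicate 1, so every probe carried the variation.

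**Figure D2:**
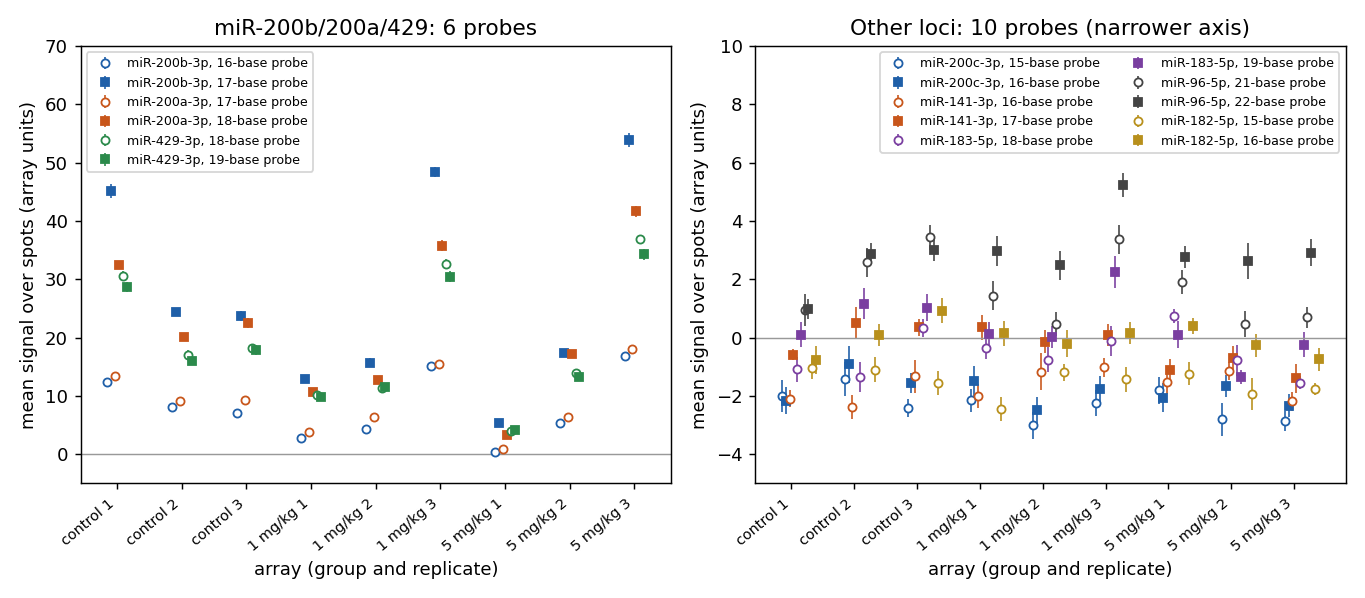
Mean processed signal of each probe in array units, before scaling, with the standard error over its spots, by array. The left panel has the 6 probes of miR-200b-3p, miR-200a-3p and miR-429-3p, which reach 53.9 units; the right panel has the 10 probes of the other loci on a narrower axis, where the highest mean is 5.22 units.

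The second miR-200 locus gave no detected signal. The summed signal of mmu-miR-200c-3p lay between -5.50 and -2.33 units on the 9 arrays and that of mmu-miR-141-3p between -3.58 and -0.93 units. Signals are background-subtracted and can be negative, and all of these lay under the floor of their array. This held also on the 3 arrays where the miR-200b/miR-200a/miR-429 locus was high.

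The probes of both loci resemble each other, since those of miR-200a-3p and miR-141-3p share a run of 11 bases. The probes of miR-429-3p and miR-141-3p share the same run. It is shown in capitals because it is the longest stretch by which one miRNA could be captured by the probe of the other locus. The 5′ end is at the left.
miR-200a-3p, 18-base probe: acatcgTTACCAGACAGt
miR-141-3p, 17-base probe: ccatctTTACCAGACAG

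While the miR-200a-3p probe varied across arrays, the 17-base miR-141-3p probe stayed between -1.40 and 0.50 units and was lowest on 5 mg/kg replicate 3. The probes of miR-200b-3p and miR-200c-3p share a run of 10 bases, and the 16-base miR-200c-3p probe stayed between -2.50 and -0.91 units. Within the locus, the probes of miR-200a-3p and miR-429-3p share a run of 12 bases, so part of each signal could come from the other miRNA, and their part in the close correlation was not tested.

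The miR-183 cluster was not detected either. mmu-miR-183-5p lay between -2.11 and 2.15 units and mmu-miR-182-5p between -2.50 and -0.63 units, all under the floor. mmu-miR-96-5p, whose seed differs from that of miR-183-5p at 1 base, lay between 1.92 and 8.59 units. It passed the floor on 1 of 9 arrays, 1 mg/kg replicate 3, where 8.59 units stood against a floor of 5.99, and the scanner software did not call it detected there. The opposite strands of the 8 hairpins were likewise detected on 0 of 9 arrays, with signals between -14.1 and 1.07 units.

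Because 5 of 8 members had no detected signal, whether the loci co-varied could not be tested on the log2 scale, and 0 of 0 testable members of the other loci correlated with miR-200b-3p. An array that reads no signal gives a bound and not an absence. As a description, the scaled signals without floor or log2 of the 5 members were set against that of miR-200b-3p, a step chosen after the data were seen. Pearson's r ranged from -0.20 for miR-141-3p to 0.03 for miR-96-5p, and rho from -0.22 to 0.00. The lowest exact permutation p among the 5 was 0.592 for r (adjusted p = 0.962) and 0.581 for rho (adjusted p = 0.970). The 22-base probe of miR-96-5p read from 0.98 units (SE over spots 0.33) on control replicate 1 to 5.22 units (SE 0.41) on 1 mg/kg replicate 3. Its 21-base probe was lowest on 5 mg/kg replicate 2 (0.46 units) and highest on control replicate 3 (3.44 units). The 19-base probe of miR-183-5p ranged from -1.34 to 2.25 units. An SE over spots does not measure the spread between arrays, so whether miR-96-5p itself varied cannot be told. A relation between the loci below the detection limit would not be seen.

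Exposure did not separate the arrays of the detected locus. In miR-200b-3p the mean log2 signal was -3.78 ± 0.47 in controls, -4.39 ± 0.98 at 1 mg/kg and -4.67 ± 1.58 at 5 mg/kg (SD, n = 3 each). miR-200b-3p at 1 mg/kg minus control came to -0.62 (SE 0.77, 95% interval -2.37 to 1.14) on the log2 scale. At 5 mg/kg minus control it came to -0.89 (SE 0.77, interval -2.64 to 0.87), and at 5 minus 1 mg/kg to -0.27 (interval -2.02 to 1.48). The group at 5 mg/kg rests on 2 arrays that detected it and 1 at the floor.

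The other miRNAs of the locus gave similar values. miR-200a-3p differed from control by -0.64 (interval -2.22 to 0.94) at 1 mg/kg and by -0.81 (interval -2.39 to 0.77) at 5 mg/kg. miR-429-3p differed by -0.54 (interval -2.16 to 1.07) and by -0.84 (interval -2.45 to 0.78). At 5 minus 1 mg/kg they gave -0.17 and -0.29. Group means were thus lower after PM2.5 for all 3 miRNAs, every interval included 0, and the intervals are wide enough to hold a large change either way.

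In each comparison the arrays of the groups separated in 0 of these 3 miRNAs. Over all 424 tested miRNAs the arrays did not overlap in 12.3% at 1 mg/kg, in 16% at 5 mg/kg and in 7.31% between the doses. At an unadjusted limma p under 0.05, the threshold of the study's screen, 7.78%, 9.43% and 3.77% of all tested miRNAs passed, and 0 of 0 testable members of the other loci. No p is given for the 3 members, which were picked by their spread over the same arrays.

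**Figure D3:**
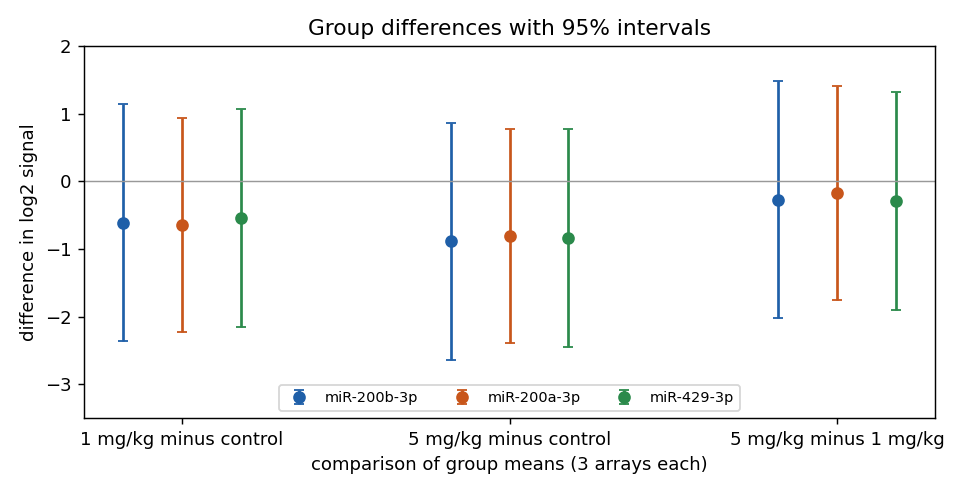
Difference between group means of log2 signal, with the 95% interval from limma, for miR-200b-3p, miR-200a-3p and miR-429-3p, each mean over 3 arrays. All 9 differences lie below 0 and every interval includes 0.

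The size of these differences rested on single arrays. For miR-200b-3p at 5 mg/kg, the difference from control came to -1.66 without 5 mg/kg replicate 3 and -0.08 without 5 mg/kg replicate 1. Leaving out 5 mg/kg replicate 1 turned the difference between the doses to 0.53, and leaving out 1 mg/kg replicate 3 turned it to 0.29. At 1 mg/kg the difference was -1.18 without replicate 3 and -0.30 without replicate 1 of that group.

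The position on the slides was not balanced. The 3 controls and 1 mg/kg replicate 1 lay in row 1 of one slide, 1 mg/kg replicates 2 and 3 and 5 mg/kg replicates 1 and 2 lay in row 2, and 5 mg/kg replicate 3 lay alone on another slide. Within row 1, 1 mg/kg replicate 1 was below all 3 controls, and within row 2 both arrays at 5 mg/kg lay on either side of 1 mg/kg replicate 2 and below replicate 3. With the row as a block, the differences of miR-200b-3p from control were -0.15 at 1 mg/kg and -0.42 at 5 mg/kg. With the slide as a block, the difference at 5 mg/kg was -1.66. That block takes out 5 mg/kg replicate 3, alone on its slide, so this repeats the value given above without that array.

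The miRNAs that followed miR-200b-3p most closely outside the locus were then sought among the 421 other tested miRNAs, by Pearson's r over the 9 arrays with an exact permutation test over 362880 arrangements. The first in rank was miR-195a-5p, a member of the miR-15/16 family, with log2 signals of 1.62, 0.91 and 1.08 in controls, 0.68, 0.69 and 1.43 at 1 mg/kg, and 0.24, 0.61 and 1.44 at 5 mg/kg. It was high on the same 3 arrays and lowest on 5 mg/kg replicate 1. Its r was 0.962 (exact permutation p = 0.000152, adjusted p = 0.00491) and its rho 0.933 (exact permutation p = 0.00075, adjusted p = 0.0109).

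The other miRNAs of the leading 5 were let-7c-5p, miR-497-5p, let-7b-5p and miR-6401. let-7c-5p and let-7b-5p belong to the let-7 family, abundant in differentiated neural tissue, and gave r of 0.961 and 0.951 with rho of 0.950 and 0.933. miR-497-5p, made from the same cluster as miR-195a-5p, gave r of 0.956 and rho of 0.917. miR-6401 gave r of 0.929 and rho of 0.783. By the exact permutation test the adjusted p of r was between 0.00464 and 0.00955 for these 5, and that of rho was between 0.0106 and 0.0131 except for miR-6401 (adjusted p = 0.0625).

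Without 5 mg/kg replicates 3 and 1, the arrays farthest from the median of miR-200b-3p, r was 0.954 for miR-195a-5p, 0.909 for let-7c-5p, 0.929 for miR-497-5p, 0.901 for let-7b-5p and 0.864 for miR-6401. Taken as deviations from the group means, r was 0.956, 0.968, 0.955, 0.949 and 0.934. In a fit that removes the means of the slide rows it was 0.952, 0.964, 0.955, 0.951 and 0.912. In that fit and in the row block above, row 1 of both slides counted as 1 row. The 5 and 4 arrays of the rows are too few for a correlation within a row. All 5 miRNAs were picked for the highest r on these same arrays. The r of this paragraph are therefore a description, and no p is given for them.

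These companions varied far less than the locus itself. The log2 signal of let-7c-5p ran from 5.26 to 5.92 and that of let-7b-5p from 4.41 to 5.20, and the SDs of the 5 lay between 0.18 and 0.46, beside 1.03 for miR-200b-3p.

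Such relations were common in these arrays. Of the 421 miRNAs, 168 (39.9%) passed an unadjusted exact permutation p of 0.05, 80 (19%) with a positive and 88 (20.9%) with a negative r, and 121 (28.7%) passed after adjustment. The split depended on the scaling: with no scaling 93 were positive and 32 negative, with 15 after adjustment, and on the sums given by the scanner software 32 were positive and 54 negative, with 0 after adjustment. The median r was 0.02. At the negative end stood miR-467a-3p (r = -0.958), miR-669n (r = -0.951) and miR-341-3p (r = -0.950), each of which kept an r at or below -0.909 without the 2 farthest arrays. miR-467a-3p read -3.31, -2.96 and -2.98 in controls, -2.84, -2.85 and -3.22 at 1 mg/kg and -2.59, -2.78 and -3.29 at 5 mg/kg, lowest where the locus was highest. These 3 were named after their values were seen.

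**Figure D4:**
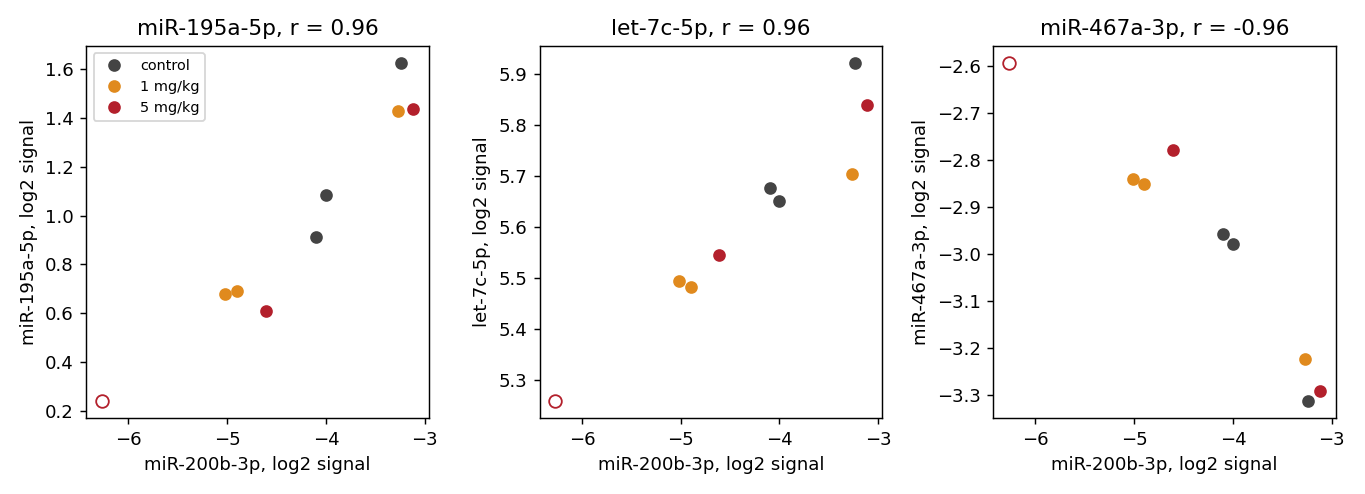
Log2 signals of miR-195a-5p, let-7c-5p and miR-467a-3p against that of miR-200b-3p on the 9 arrays, coloured by group, with the array that did not detect miR-200b-3p open. Arrays of all 3 groups fall along one line in each panel, with r of 0.962, 0.961 and -0.958.

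The number of such relations depended on which arrays were kept. Without 5 mg/kg replicate 1 there were 133, of which 45 passed after adjustment, and without both farthest arrays 116, of which 2 passed after adjustment. Without control replicate 1, which is not one of the farthest arrays, there were 138, of which 70 passed after adjustment. A test on fewer arrays is also weaker. On deviations from the group means there were 138, of which 0 passed after adjustment by the exact permutation test. In that test, which permutes within groups, no p can fall below 0.00463, which limits what can pass after adjustment.

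The leading principal component of the 421 other miRNAs held 50.7% of their variance and had an r of 0.737 with miR-200b-3p (exact permutation p = 0.0222, adjusted p = 0.111 over 5 array-wide measures; rho = 0.867, exact permutation p = 0.00451). Without the 2 farthest arrays r was 0.686. On this component control replicate 1 and 5 mg/kg replicate 3 stood apart from the other 7 arrays, so they weigh heavily in r, while rho counts ranks only. The r without both of these arrays was not computed. The second component held 21.6% of the variance and gave r of 0.562. Neither the 75th percentile of the array (r = 0.304, exact permutation p = 0.428) nor the number of miRNAs detected (r = -0.291, exact permutation p = 0.448) nor the floor (r = 0.206, exact permutation p = 0.594) passed the threshold.

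Marker lists for tissues near the hippocampus were read against the locus in the same way, each beside the 39.9% of all tested miRNAs that passed. For the choroid plexus, the epithelium of the ventricles that secretes cerebrospinal fluid, 0 of 4 tested markers passed. Its leading marker miR-204-5p ranged from 1.47 to 3.08 with a median of 2.23 on the log2 scale and gave r of -0.08 (rho = -0.35), miR-211-5p gave -0.16, miR-204-3p -0.19 and miR-448-3p -0.36. miR-448-5p was not detected on any array. The summed signal of the 5 choroid markers, in multiples of the 75th percentile, was 3.08 to 4.90 in controls, 5.40 to 8.81 at 1 mg/kg and 2.86 to 5.60 at 5 mg/kg. At 1 mg/kg it was 5.40, 6.90 and 8.81 on replicates 1 to 3, highest on the array of that group where the locus was high, whereas on 5 mg/kg replicate 3, where the locus was highest, it was 2.86. Without 5 mg/kg replicate 1, the array that did not detect miR-200b-3p, the 4 r lay between -0.58 and -0.43, and with the slide rows removed between -0.19 and 0.23.

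Among miRNAs from an intron of Htr2c, a serotonin receptor gene active in choroid epithelium and in neurons, 2 of 3 tested miRNAs passed, both negative: miR-764-5p with r of -0.679 (exact permutation p = 0.049, adjusted p = 0.125) and miR-1298-3p with -0.678 (exact permutation p = 0.0449, adjusted p = 0.119). Without the 2 farthest arrays their r was -0.583 and -0.465, and their exact permutation p were 0.104 and 0.284, so neither passed on the 7 arrays left. Without 5 mg/kg replicate 1 alone, miR-764-5p gave -0.700 (exact permutation p = 0.0478) and miR-1298-3p -0.619 (exact permutation p = 0.116). The lowest value of both, -6.26, was the floor of 5 mg/kg replicate 3. The other tested miRNA, miR-1298-5p, gave r of -0.336 (exact permutation p = 0.378).

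For ciliated ependyma, the lining of the ventricles, 0 of 4 tested markers passed, with r between -0.07 and 0.02. miR-34b-5p and miR-34c-5p, typical of cells with motile cilia, gave 0.02 and -0.02. Without 5 mg/kg replicate 1 the 4 r lay between -0.46 and -0.42, and with the slide rows removed between 0.25 and 0.30, so the values near 0 depend on that array and on the rows. The 3 miR-449 members on the list were detected on 0 arrays. The summed signal of the list was 0.79 to 1.25 in controls, 1.37 to 2.24 at 1 mg/kg and 0.73 to 1.49 at 5 mg/kg.

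Of the blood list, 1 of 3 tested markers passed, miR-144-3p, with r of -0.813 (exact permutation p = 0.00749, adjusted p = 0.0343) and -0.796 without the 2 farthest arrays. miR-451a, the main miRNA of red cells, gave -0.466 and miR-223-3p of myeloid cells -0.103. The summed signal was 3.02 to 3.83 in controls, 3.13 to 3.62 at 1 mg/kg and 3.91 to 4.23 at 5 mg/kg.

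On the list of other epithelial and endocrine miRNAs, the 4 that were tested pointed in both directions. miR-192-5p, typical of gut and kidney epithelium, gave r of 0.832 (exact permutation p = 0.00537, adjusted p = 0.026), or 0.617 (exact permutation p = 0.13) without the 2 farthest arrays. miR-31-5p gave -0.883 (exact permutation p = 0.00144, adjusted p = 0.0117) and -0.780 without them. miR-194-5p, made together with miR-192-5p, gave 0.467 and the skin miRNA miR-203-3p -0.039, which was 0.605 (exact permutation p = 0.162) without the 2 farthest arrays. miR-205-5p of stratified epithelium and miR-215-5p were not detected on any array. miR-375-3p, also on the list, was not tested because no group detected it on all 3 arrays, so its relation to the locus was not read. The summed signal of the list was 0.64 to 0.67 in controls, 0.64 to 0.71 at 1 mg/kg and 0.67 to 0.74 at 5 mg/kg.

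The neuronal list, which checks the labelled tissue, was detected in full on all 9 arrays. miR-124-3p, the most specific neuronal miRNA, ranged from 5.45 to 5.80 with a median of 5.61 on the log2 scale. In this list 4 of 5 markers passed: miR-128-3p (r = 0.689), miR-124-3p (0.686) and miR-132-3p (0.672) with positive r and adjusted p between 0.111 and 0.122 by the exact permutation test, and miR-138-5p with r of -0.916 (adjusted p = 0.00886). miR-9-5p gave -0.135. The 3 positive values were between 0.786 and 0.888 without the 2 farthest arrays. The summed signal was 150 to 176 in controls, 128 to 154 at 1 mg/kg and 144 to 170 at 5 mg/kg.

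The oligodendrocyte list was also detected in full, with 2 of 3 markers passing. miR-219-2-3p gave r of 0.788 (exact permutation p = 0.0107, adjusted p = 0.0415) and miR-338-3p 0.787 (exact permutation p = 0.0117, adjusted p = 0.0437), and miR-219-5p gave 0.607. Without the 2 farthest arrays these r were 0.441, 0.385 and 0.038, so the relation rests on those arrays. The summed signal was 4.14 to 6.04 in controls, 5.08 to 6.35 at 1 mg/kg and 2.89 to 6.74 at 5 mg/kg.

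**Figure D5:**
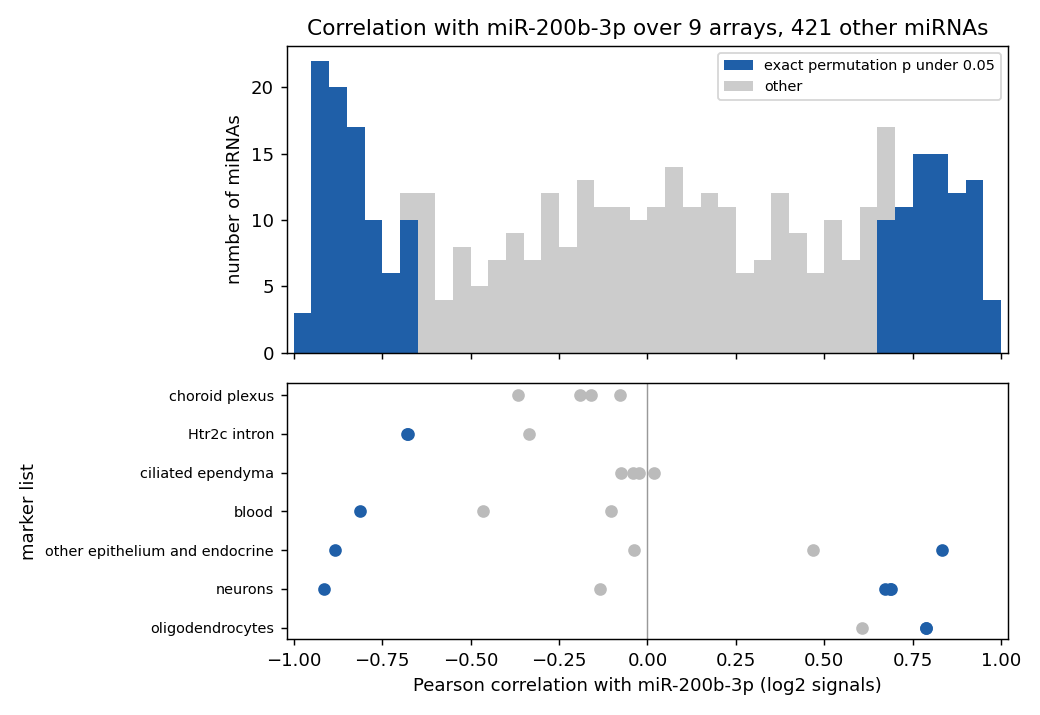
Top: number of the 421 other tested miRNAs by Pearson's r with miR-200b-3p over 9 arrays, with the 168 at an exact permutation p under 0.05 in blue. Bottom: r of the tested miRNAs of each marker list, blue where that threshold was passed; the choroid plexus and ciliated ependyma lists have 0 of 4 passing each, while the neuronal list has 4 of 5 and the oligodendrocyte list 2 of 3.

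The part of any neighbouring tissue in the variation of the miR-200b/miR-200a/miR-429 locus was not tested. What these arrays show is that the 3 miRNAs of the locus, picked for their spread, varied together. Deviations from the group means, pooled over the groups, gave r of 0.994 to 0.996 between them. miR-200c-3p, miR-141-3p and the miR-183 cluster had no detected signal on any array. The tested choroid plexus and ependymal markers had an r with miR-200b-3p between -0.36 and 0.02 over 9 arrays. Without 5 mg/kg replicate 1 their r lay between -0.58 and -0.42, and with the slide rows removed between -0.19 and 0.30. The 3 tested miRNAs of the Htr2c intron list had an r between -0.68 and -0.34 over 9 arrays.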

How the data were processed

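Total RNA of 9 hippocampal samples was labelled with Cy3 and hybridised by the authors to Agilent Mouse miRNA V19.0 arrays, and the deposited spot files hold Feature Extraction 10.7 intensity values with the software's flags. A deposited table of log2 values, whose centring and scaling are not given in the sources used here, served as an alternative, and its array medians lay between -3.32 and -3.29. From the intensity values, background-subtracted signals were averaged over the spots of a probe without outliers, summed over the probes of a miRNA, divided by the 75th percentile of the miRNAs detected on all 9 arrays, set to the floor and log2 transformed. Control spots were left out. The 424 miRNAs (34%) detected on all 3 arrays of any group entered limma 3.58.1 in R 4.3.3 (3 groups, empirical Bayes, Benjamini-Hochberg adjustment over 424). Correlations used exact permutation tests in numpy 2.4.6 (Python 3.11.15), adjusted over 421 miRNAs. Intensity values carry no counts, so no counting interval applies. No spot had an equal signal on any pair of arrays, so all 9 arrays were kept as separate samples.

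Named were the 8 members, their opposite strands, the 5 miRNAs with the highest r with miR-200b-3p and the tested miRNAs of 7 marker lists. Members and lists were chosen with earlier results of these data known. Both scripts were tested on simulated data. The labels do not say how the hippocampi were dissected or whether each came from 1 mouse. The study describes individual mice for the control and 5 mg/kg arrays and does not say so for 1 mg/kg. The p-values measure the spread between these arrays. Sequences and positions came from RefSeq (GRCm38.p6).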

Additional observations from a re-analysis of the deposited data

How the results depend on the processing

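No member of the other loci could be tested except where no filter was set, so their counts of 0 say nothing about stability. With no filter, 4 of 5 were called at 1 mg/kg, where nearly all values are the floors of the arrays, and 0 at 5 mg/kg and between the doses. The differences of miR-200b-3p, miR-200a-3p and miR-429-3p from control stayed below 0 under every alternative. miR-200a-3p at 5 mg/kg was -1.88 in the deposited log2 table. With normexp background correction the 3 differences lay between -0.16 and -0.15 at 1 mg/kg and between -0.17 and -0.16 at 5 mg/kg. That correction added an offset of 50 units to each spot, and such an offset shrinks log2 differences of dim signals. On the summed signals that the scanner software itself gives, miR-200a-3p came to 0.20 between the doses. Leaving out 1 array gave ranges from -1.18 to -0.30, -1.13 to -0.36 and -1.01 to -0.29 at 1 mg/kg, from -1.66 to -0.08, -1.49 to -0.04 and -1.54 to -0.05 at 5 mg/kg, and from -1.04 to 0.53, -0.85 to 0.60 and -0.998 to 0.49 between the doses. Since 5 mg/kg replicate 1 did not detect the locus, requiring detection on all 9 left no difference to compute.

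The 168 miRNAs correlated with miR-200b-3p became 86 on the sums of the scanner software, of which 71 were shared and 0 passed after adjustment (121 as reported), and the cause was not tested. Leaving out 1 array gave 133 to 169. A paired reading of the replicate numbers had no basis in the labels. Deviations of same-numbered arrays correlated between -0.65 and 0.74, which cannot tell whether the samples were paired. The replicate block gave 80 such miRNAs, of which 70 were shared and 0 passed after adjustment, left miR-6401 at r = 0.921 with p = 0.111 by permutation within blocks, which allow few arrangements, and left the differences as they were.

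Dim signals limit these values: the lowest detected signals were 5.99 to 8.10 units, and a member below them has a bound only. Correlations rest on 9 arrays.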
